A study of Mus musculus with 6 samples.

Results

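Transcripts of the TOX and NR4A transcription factors were examined in CD8 T cells sorted from tumours. The genes were chosen by symbol, as the 4 rows Tox, Tox2, Tox3 and Tox4 and the 3 rows Nr4a1, Nr4a2 and Nr4a3 of a table of 40879 genes, and all 7 were present. The cells came from MC38-hPD-L1 tumours, a line derived from the mouse colon carcinoma MC38, grown for 12 days in C57BL/6N mice. Light-driven proximity labelling had attached biotin to cells near the tumour cells. Cell sorting then gave 3 libraries of biotin-carrying CD8 T cells (Biotin+, tumour-neighbouring) and 3 of cells without biotin (Biotin-, tumour-distal), numbered as replicates 1 to 3 in each group. All 6 libraries share strain, tumour line, day and labelling, and no age, sex, antibody treatment or number of animals behind a replicate is given in the sources used here.

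TOX proteins bind DNA through an HMG box, and NR4A proteins are orphan nuclear receptors whose activity follows their abundance rather than a ligand. In T cells, calcium entry after antigen receptor engagement activates calcineurin and the factor NFAT. NFAT induces Nr4a genes and Tox, and Tox and the NR4A factors together sustain the inhibitory receptors of exhausted CD8 T cells in tumours and chronic infection. The Nr4a genes are also early response genes, which many cell types switch on within minutes of stimulation.

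Library totals ran from 16423106 to 19640693 counts. Biotin+ replicate 2 stood apart by its scaling factor, 0.815 against 0.980 to 1.13 in the other libraries. Of the labelled cell type's markers, all 15 CD8 T cell identity genes passed the filter on low counts. Cd4 averaged 1.22 CPM (counts per 1000000, with libraries scaled by the TMM method) in Biotin+ and 3.67 CPM in Biotin-, and Cd8a 1226 and 653 CPM. Identity transcripts took a larger share of the counts in Biotin+ (0.831 to 0.880%) than in Biotin- (0.494 to 0.650%). Fibroblast and endothelial marker transcripts took 0.0249 to 0.0497% in Biotin+ and 0.161 to 0.306% in Biotin-, and macrophage and monocyte markers 0.0664 to 0.236% and 0.140 to 0.461%. Markers of epithelial and tumour cells, neutrophils, B cells, CD4 and regulatory T cells, and NK and gamma delta T cells each stayed at or below 0.0263% in every library. Krt20 and Il4 were at 0 in all 6. Other members were well detected, with Cdh1 at 129 CPM in Biotin+ replicate 1 and Tnfrsf4 at 226 CPM in Biotin+ replicate 2. Of these lists, the edgeR test described below called Ebf1 and Klra4 lower in Biotin+ and no other gene. Dendritic cell markers lay between 0.0486 and 0.136%.

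The comparison asks whether these factors differ between tumour-neighbouring and tumour-distal CD8 T cells. Levels of Nr4a1 were lower in all 3 Biotin+ libraries than in any Biotin- library, while the groups overlapped for each of the other 6 genes. Over all tested genes, the group ranges of 29.2% did not overlap. In edgeR's quasi-likelihood test 0 of the 7 were higher and 0 lower at an adjusted p of 0.05, where the same test called 1.53% of all 13360 genes tested higher and 6.72% lower (8.26% in all). At an unadjusted p of 0.05, 1 of the 7 passed, Nr4a1, against 22.6% of all genes. When same-numbered libraries were compared within pairs, by a term for the replicate number (called the blocked fit here), Nr4a1 was lower and the other 6 did not pass, where 5.6% of all genes were higher and 12% lower (17.6% in all). DESeq2 and limma-voom also called Nr4a1 lower and none of the other 6. In bulk RNA, fewer cells with a transcript and less of it per cell cannot be told apart.

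The upstream sequences of the Nr4a genes are shown because each holds several copies of 1 motif. A link between the motif and the transcript levels was not tested. Of the 7 genes, all but Tox matched the RefSeq promoter table. The core of the cAMP response element, through which calcium and cAMP signals act on early response genes, reads TGACG, or CGTCA on the other strand. It is in capitals in the 250 bases before each start site, from RefSeq on GRCm38.p6, written 5′ to 3′ in the direction of transcription. Nr4a1 lies at chr15:101266596-101266845 (plus strand), Nr4a2 at chr2:57124004-57124253 (minus strand) and Nr4a3 at chr4:48045055-48045304 (plus strand).
Nr4a1: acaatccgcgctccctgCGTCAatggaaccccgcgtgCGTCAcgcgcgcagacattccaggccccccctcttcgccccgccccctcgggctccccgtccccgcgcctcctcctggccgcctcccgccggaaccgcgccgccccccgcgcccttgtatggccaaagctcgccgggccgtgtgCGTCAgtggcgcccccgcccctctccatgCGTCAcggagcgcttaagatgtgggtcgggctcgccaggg
Nr4a2: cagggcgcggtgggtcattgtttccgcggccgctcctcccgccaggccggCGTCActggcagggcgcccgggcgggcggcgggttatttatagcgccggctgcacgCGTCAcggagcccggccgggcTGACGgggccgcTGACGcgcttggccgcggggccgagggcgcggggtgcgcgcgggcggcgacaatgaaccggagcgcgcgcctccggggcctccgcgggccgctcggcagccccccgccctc
Nr4a3: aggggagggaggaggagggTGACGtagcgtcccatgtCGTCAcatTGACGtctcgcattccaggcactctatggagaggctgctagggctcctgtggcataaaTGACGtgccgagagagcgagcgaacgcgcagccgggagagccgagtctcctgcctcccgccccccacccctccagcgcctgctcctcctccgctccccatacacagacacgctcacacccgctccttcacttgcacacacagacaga

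Each window held 4 matches, counted on both strands. At least 1 match was present in 17.8% of the 32851 windows of this length in the table, and at least 4 in 0.137%. The windows are rich in G and C (74.4%, 80% and 63.6%, against a median of 52.4% over all windows), and the motif contains CG. The nearest match began 40 bases before the Nr4a1 start, 111 before that of Nr4a2 and 147 before that of Nr4a3. The full element TGACGTCA was absent from all 3 windows and present in 1.55% of all windows, and the NR4A monomer site AAAGGTCA was absent from all 3 and present in 1.34%. The short NFAT core GGAAA was present once in the Nr4a2 window, not in those of Nr4a1 and Nr4a3, and in 55.6% of all windows. Of the TOX genes, Tox4 had 1 TGACG match in its window, Tox3 had 0, and 1 of the 5 listed starts of Tox2 had 1.

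Nr4a1 encodes NUR77, an early response receptor widely used as a reporter of antigen receptor signalling. It stood at 321, 564 and 308 CPM in Biotin+ replicates 1 to 3 and at 600, 887 and 669 CPM in Biotin- replicates 1 to 3. The lowest Biotin- library thus lay above the highest Biotin+ library, and the ranges of 29.2% of all tested genes likewise did not overlap. The means were 398 ± 144 and 719 ± 150 CPM (SD, n = 3 each), a log2 fold change (Biotin+ minus Biotin-) of -0.85 ± 0.28 (SE) with a 95% interval of -1.47 to -0.23. This missed the threshold in edgeR (adjusted p = 0.0937). Within the same-numbered pairs the log2 differences were -0.90, -0.65 and -1.12, and the blocked fit gave -0.89 ± 0.17 (SE, edgeR adjusted p = 0.00171).

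Biotin+ replicate 2, the library with the low scaling factor, held the highest Nr4a1 level of its group. Without it the log2 fold change of Nr4a1 was -1.22 and passed (edgeR adjusted p = 0.0379). Without the other 5 libraries in turn it ran from -0.97 to -0.69 and did not pass. In the blocked fit Nr4a1 passed without pair 1 or pair 2 but not without pair 3 (edgeR adjusted p = 0.0507). The share of counts from fibroblast and endothelial markers was also lower in Biotin+ (0.0406 ± 0.0137%) than in Biotin- (0.226 ± 0.0736%, SD, n = 3). Of the 16 markers on that list 13 were tested and 8 were lower, against 6.72% of all genes tested. None of the 16 was at 0 in every library. Of the 14 macrophage and monocyte markers, all tested, 0 passed in edgeR and 12 had a negative log2 fold change. In the blocked fit, which called 12% of all genes lower, 4 of these markers were lower. The part of these cells in the Nr4a1 level was not tested.

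Nr4a2 encodes NURR1, the second receptor of the family. Its levels were 203, 188 and 169 CPM in Biotin+ replicates 1 to 3 and 167, 224 and 131 CPM in Biotin- replicates 1 to 3. The Biotin+ libraries all fell inside the range of the Biotin- libraries. The log2 fold change was 0.10 ± 0.23 (SE, 95% interval -0.40 to 0.60, edgeR adjusted p = 0.838).

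Nr4a3 encodes NOR1, the third receptor of the family. Its levels were 566, 330 and 389 CPM in Biotin+ replicates 1 to 3 and 533, 503 and 399 CPM in Biotin- replicates 1 to 3. The highest and the 2 lowest libraries were all Biotin+, so that the groups overlapped and the Biotin+ group was the more spread. The log2 fold change was -0.16 ± 0.25 (SE, 95% interval -0.70 to 0.38, edgeR adjusted p = 0.760).

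**Figure D1:**
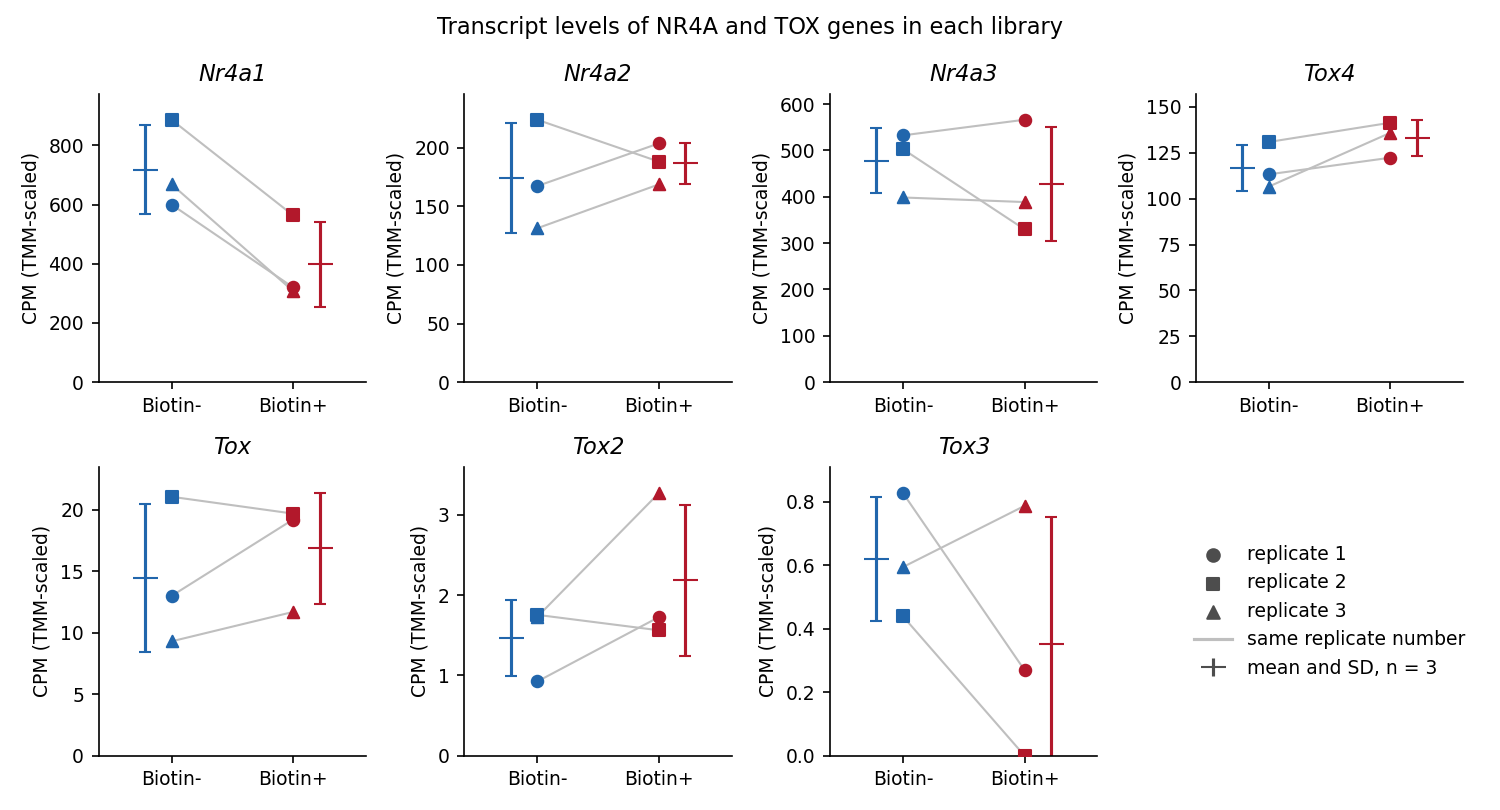
Levels of the 3 Nr4a and 4 Tox genes in CPM (vertical axes, linear, from 0) in Biotin- and Biotin+ libraries, with marker shape for the replicate number, grey lines joining the same number, and bars for the mean and SD of 3 libraries. Nr4a1 is lower in every Biotin+ library than in any Biotin- library (308 to 564 against 600 to 887 CPM), and the groups overlap for the other 6 genes. Over all tested genes, the group ranges of 29.2% do not overlap.

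Ratios between the Nr4a transcripts within a library do not depend on how libraries are scaled to each other. The log2 ratio of Nr4a1 to Nr4a2 counts was 0.66, 1.59 and 0.87 in Biotin+ replicates 1 to 3 and 1.84, 1.99 and 2.35 in Biotin- replicates 1 to 3. The groups did not overlap, and relative to Nr4a2 the Nr4a1 counts were 2.03-fold lower in Biotin+. The difference was -1.02 on the log2 scale, negative in 3 of 3 same-numbered pairs (exact two-sided permutation p = 0.1, the smallest that 3 against 3 can give, and 0.45 adjusted over the 9 ratios tested). The ratio of Nr4a1 to Nr4a3 differed by -0.71 and was lower in 3 of 3 pairs, but pair 2 differed by only -0.04 and the groups overlapped (exact permutation p = 0.3, 0.54 adjusted). The ratio of Nr4a2 to Nr4a3 was higher in Biotin+ in 3 of 3 pairs, by 0.20, 0.36 and 0.40 on the log2 scale, with overlapping groups (exact permutation p = 0.3, 0.54 adjusted). Without Biotin+ replicate 2 the Nr4a1 to Nr4a3 difference was -1.16 and the Nr4a1 to Nr4a2 difference -1.30, while that of Nr4a2 to Nr4a3 was 0.14. Without Biotin+ replicate 1 the Nr4a1 to Nr4a3 difference was -0.36.

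**Figure D2:**
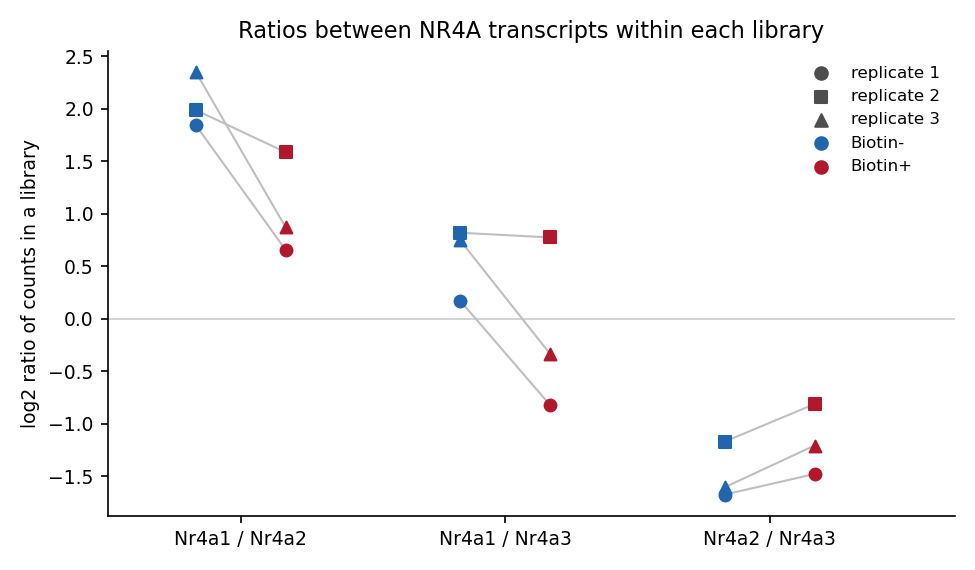
Log2 ratio of the counts of 2 Nr4a genes in the same library (vertical axis), for Biotin- (blue) and Biotin+ (red), with marker shape for the replicate number and grey lines joining the same number. The ratio of Nr4a1 to Nr4a2 runs from 0.66 to 1.59 in Biotin+ and from 1.84 to 2.35 in Biotin-, and the other ratios overlap between groups.

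Per kilobase of exon the NR4A transcripts were ordered Nr4a1, Nr4a3, Nr4a2 on average in both groups. In Biotin- they stood at 205 ± 42.6, 79.8 ± 11.8 and 42.9 ± 11.5 CPM per kilobase, and in Biotin+ at 113 ± 41.1, 71.5 ± 20.6 and 46.0 ± 4.32 (SD, n = 3 each). In Biotin- these 3 ranges were apart. In Biotin+ Nr4a1 (87.8 to 161) overlapped Nr4a3 (55.1 to 94.6), and in replicate 1 Nr4a3 was the higher. Of the family's length-scaled total, Nr4a1 made up 48.4 ± 11.6% in Biotin+ and 62.4 ± 4.89% in Biotin-, and Nr4a2 20.1 ± 2.10% and 13.0 ± 1.57% (SD, n = 3). The summed NR4A level was 865 to 1090 CPM in the Biotin+ libraries and 1199 to 1613 CPM in the Biotin- libraries.

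Tox, the member that programmes exhausted CD8 T cells, was a transcript of middling abundance, with 44.4% of tested genes at or below its mean level. It stood at 19.2, 19.7 and 11.7 CPM in Biotin+ replicates 1 to 3 and at 13.0, 21.1 and 9.30 CPM in Biotin- replicates 1 to 3. The groups overlapped, and replicate 3 was the lowest library of each. The log2 fold change was 0.22 ± 0.34 (SE) with a 95% interval of -0.53 to 0.98 (edgeR adjusted p = 0.755), wide enough to hold a change in either direction.

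Tox2, a relative of Tox that also accompanies exhaustion and follicular helper programmes, was scarce, with 25 to 54 counts in each Biotin+ library and 19 to 32 in each Biotin- library. Its levels were 1.73, 1.56 and 3.27 CPM in Biotin+ replicates 1 to 3 against 0.924, 1.75 and 1.73 CPM in Biotin-. Only Biotin+ replicate 3 lay above the Biotin- range. The log2 fold change was 0.57 ± 0.56 (SE, 95% interval -0.67 to 1.82, edgeR adjusted p = 0.599).

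Tox3, best known from epithelial and neural tissue, was at the limit of detection with 54 counts in all 6 libraries together. There were 5, 0 and 13 counts in Biotin+ replicates 1 to 3 and 17, 8 and 11 in Biotin- replicates 1 to 3. The count of 0 in Biotin+ replicate 2 allows up to 3 counts, or 0.188 CPM. The log2 fold change of -0.81 ± 1.02 (SE, 95% interval -3.07 to 1.45) did not pass (edgeR adjusted p = 0.695). It ran from -2.09 without Biotin+ replicate 3 to -0.28 without Biotin+ replicate 2.

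Tox4, a subunit of the PTW/PP1 phosphatase complex on chromatin and expressed in most cells, was the most abundant TOX transcript. It stood at 122, 141 and 136 CPM in Biotin+ replicates 1 to 3 and at 113, 131 and 107 CPM in Biotin- replicates 1 to 3. Each Biotin+ library exceeded its same-numbered Biotin- library, yet the groups overlapped. The log2 fold change was 0.19 ± 0.18 (SE, 95% interval -0.22 to 0.59, edgeR adjusted p = 0.595). Of its 75-base windows in GENCODE M21 transcripts, 14.6% were shared with Mettl3 and Rab2b on the opposite strand or with Gm5828, so without a stated strand setting that part of its counts is uncertain. Mettl3 and Rab2b averaged 18.7 and 11.3 CPM in Biotin+. Tox shared 2.47% of its windows with an antisense gene, and the other 5 members shared 0.

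Per kilobase of exon the TOX genes were ordered Tox4, Tox, Tox2, Tox3 on average in both groups. The values were 19.2 ± 1.41, 2.22 ± 0.589, 0.643 ± 0.277 and 0.105 ± 0.119 CPM per kilobase in Biotin+, and 16.8 ± 1.81, 1.90 ± 0.790, 0.432 ± 0.139 and 0.185 ± 0.0582 in Biotin- (SD, n = 3). Within each group no neighbours in this order overlapped. Tox4 thus made up 86.6 ± 1.43% of the family's length-scaled total in Biotin+ and 87.2 ± 2.25% in Biotin-, and Tox most of the rest. The ratio of Tox to Tox4 within a library differed by 0.07 on the log2 scale between groups (exact permutation p = 1, 1 adjusted) and turned negative when replicate 1 or 2 of Biotin+ was left out (-0.099 and -0.012) and when replicate 3 of Biotin- was (-0.14). Of the 6 ratios between TOX genes, only Tox2 to Tox3 did not overlap between groups (difference 2.22, exact permutation p = 0.1, 0.45 adjusted), and it rests on the few Tox3 counts, falling to 1.09 without Biotin+ replicate 2.

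**Figure D3:**
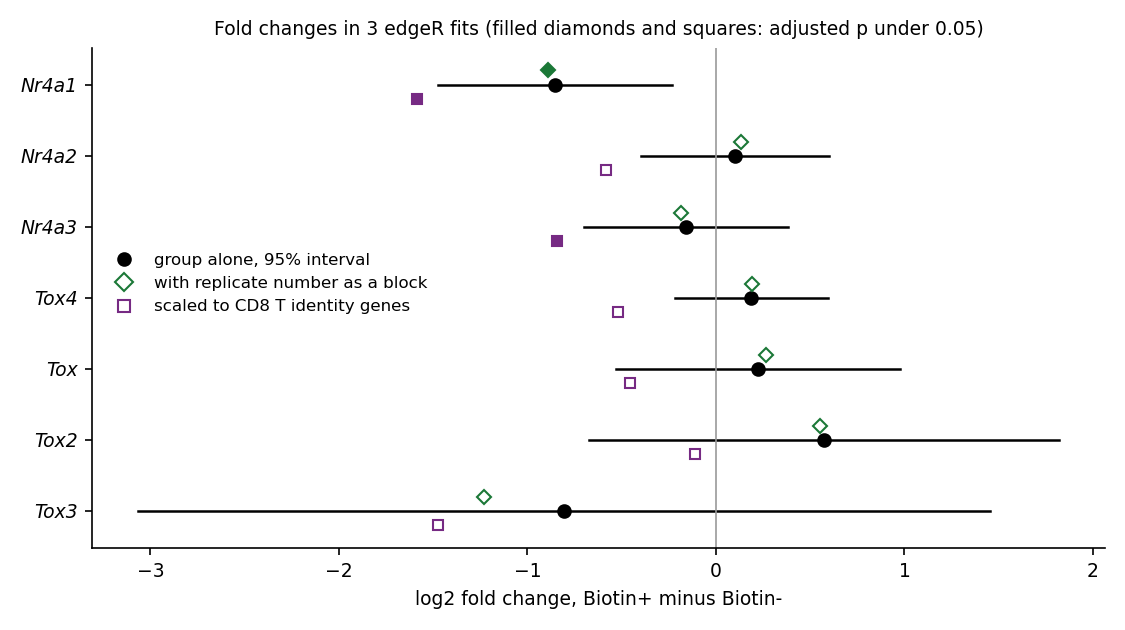
Log2 fold change, Biotin+ minus Biotin- (horizontal axis), of each gene in the edgeR fit with the group alone (black points, bars are 95% intervals), with the replicate number as a block (diamonds) and with libraries scaled to 15 CD8 T identity genes (squares). The interval of Nr4a1 (-1.47 to -0.23) lies below 0 and those of the other 6 genes include 0, while under identity scaling all 7 points lie below 0.

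Scaling libraries to their 15 CD8 T identity genes (by the median), which took a larger share of counts in Biotin+, moved the log2 fold change of a gene by -0.718 (the median over all genes tested). The small positive values of Tox, Tox2, Tox4 and Nr4a2 thereby became negative, a shift they share with all genes. Nr4a1 (-1.59 ± 0.21 SE, edgeR adjusted p = 0.00508) and Nr4a3 (-0.84 ± 0.26 SE, edgeR adjusted p = 0.0412) were called lower, and Nr4a2 (-0.58) and Tox4 (-0.52) were not, in a fit that called 27% of all genes lower and 0.21% higher (27.2% in all). The 2 lower genes of 7 are a share near that of all genes.

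Calcineurin and NFAT signalling, a route by which antigen receptor signals reach Tox and the Nr4a genes, was represented by 14 genes. The test called 1 of the 14 lower, near the 6.72% of all genes called lower, and 0 higher, and their median log2 fold change was 0.15 against 0.06 over all genes tested. The lower gene was Rcan1, an NFAT-induced inhibitor of calcineurin, with 13.3 ± 4.10 CPM in the Biotin+ libraries against 30.8 ± 9.20 CPM (SD, n = 3) in the others. Its log2 fold change was -1.21 ± 0.31 (SE, edgeR adjusted p = 0.0388). Its call was lost without any of 5 libraries, Biotin- replicate 2 being the exception, and without pair 3 in the blocked fit. Orai1, the pore of the calcium channel, had 0.57 ± 0.19 (SE), Camk4, a calcium-dependent kinase, 0.65 ± 0.25 (SE) and Ppp3cc, a calcineurin catalytic chain, 0.68 ± 0.29 (SE). None of these passed in edgeR (the smallest adjusted p was that of Orai1, at 0.1002), and all 3 were higher in the blocked fit, which called 5.6% of all genes higher (adjusted p = 0.0431, 0.0362 and 0.0163). Orai1 lost that call with any 1 pair left out, and Camk4 and Ppp3cc lost it without pair 1 or pair 3.

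Surface proteins of exhausted T cells, among them inhibitory receptors whose genes TOX and NR4A factors are known to act on, were higher in part. Of 12 such genes 6 were higher, 0 were lower and the other 6 missed the threshold, with a median log2 fold change of 1.08. Of all genes tested, 1.53% were higher. The blocked fit called 10 higher, against 5.6% of all genes, and identity scaling 2, against 0.21%. The 6 included Pdcd1 (PD-1, log2 fold change 1.68 ± 0.40 SE), Tnfrsf9 (the costimulatory receptor 4-1BB, 1.46 ± 0.24 SE), Entpd1 (CD39, an enzyme that degrades ATP, 1.27 ± 0.23 SE) and Lag3 (1.18 ± 0.26 SE), against 0.22 ± 0.34 (SE) for Tox. The list was known from earlier results of these data to be higher. Tnfrsf9 and Entpd1 passed in edgeR with any 1 library left out. Pdcd1 did not pass without replicate 2 of Biotin+ or without replicate 1 or 3 of Biotin-, nor Lag3 without any library but Biotin+ replicate 1, and both passed in the blocked fit without any 1 pair. Under identity scaling Entpd1 and Lag3 did not pass (edgeR adjusted p = 0.0839 and 0.161). Over the list, leaving out Biotin+ replicate 2 gave 3 genes higher, and leaving out replicate 1 or 3 of Biotin- gave 2. Under identity scaling the median log2 fold change of the list was 0.39, against -0.65 over all genes tested. CD8 identity transcripts took a larger share of counts in the same 3 Biotin+ libraries, and the part of that share was not tested. A difference between these genes and Tox was not tested.

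Among 20 other transcription factors of T cell states, 2 were lower and 0 higher, against 6.72% and 1.53% of all genes tested. The median log2 fold change of the 20 was 0.29. Tcf7 encodes TCF-1, a factor of naive and stem-like T cells, and averaged 87.2 ± 5.39 CPM in the Biotin+ libraries against 297 ± 30.8 CPM (SD, n = 3) in the others. Its log2 fold change was -1.77 ± 0.19 (SE, edgeR adjusted p = 0.00442). Id3, an inhibitor of E proteins that marks memory precursors, averaged 11.6 ± 2.46 against 39.0 ± 9.38 CPM (SD, n = 3), or -1.75 ± 0.27 (SE) on the log2 scale (edgeR adjusted p = 0.00691). Tbx21 (T-bet) and Id2, factors of effector cells, had log2 fold changes of 0.97 ± 0.30 and 0.86 ± 0.27 (SE) and did not pass in edgeR (adjusted p = 0.0761 and 0.0819). In the blocked fit, which called 5.6% of all genes higher, 6 factors were higher. Of the 5 PTW/PP1 partners of Tox4, 0 passed in edgeR and Ppp1ca, a catalytic chain of the phosphatase, was higher in the blocked fit (0.65 ± 0.26 SE with the group alone, blocked edgeR adjusted p = 0.0473), a call lost with any 1 pair left out (adjusted p = 0.065 to 0.137). As with Nr4a1, the fibroblast and endothelial share was lower in the libraries where Tcf7 and Id3 were lower, and its part was not tested.

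The early response genes, the class to which the Nr4a genes belong, were lower in part. Of 22 other early response genes, 8 were lower and 0 higher, against 6.72% and 1.53% of all genes tested. The median log2 fold change of the 22 was -0.42. Klf4 (-1.86 ± 0.33 SE), Ier3 (-1.42 ± 0.22 SE), Myc (-1.35 ± 0.23 SE) and Atf3 (-1.24 ± 0.20 SE) had the smallest p-values, and Egr2, Egr1, Jun and Fosb, named after their values were seen, were the others. Nr4a1 at -0.85 ± 0.28 lay between Fosb at -0.87 ± 0.21 (SE), which passed (edgeR adjusted p = 0.0293), and Fos at -0.83 ± 0.36 (SE), which did not (0.194) and was also named after its value was seen. Both Fosb and Fos were lower in the blocked fit (adjusted p = 0.00199 and 0.00262). The call of Fosb was lost without any of 5 libraries, Biotin+ replicate 1 being the exception, and without pair 3 in the blocked fit. Without pair 3 the blocked call of Fos was also lost (edgeR adjusted p = 0.104). Leaving out Biotin+ replicate 2 gave 5 lower genes and leaving out replicate 3 of Biotin- gave 4. Identity scaling gave 18, in a fit that called 27% of all genes lower. The fibroblast and endothelial share was lower in the same 3 libraries as these genes, and its part was not tested.

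**Figure D4:**
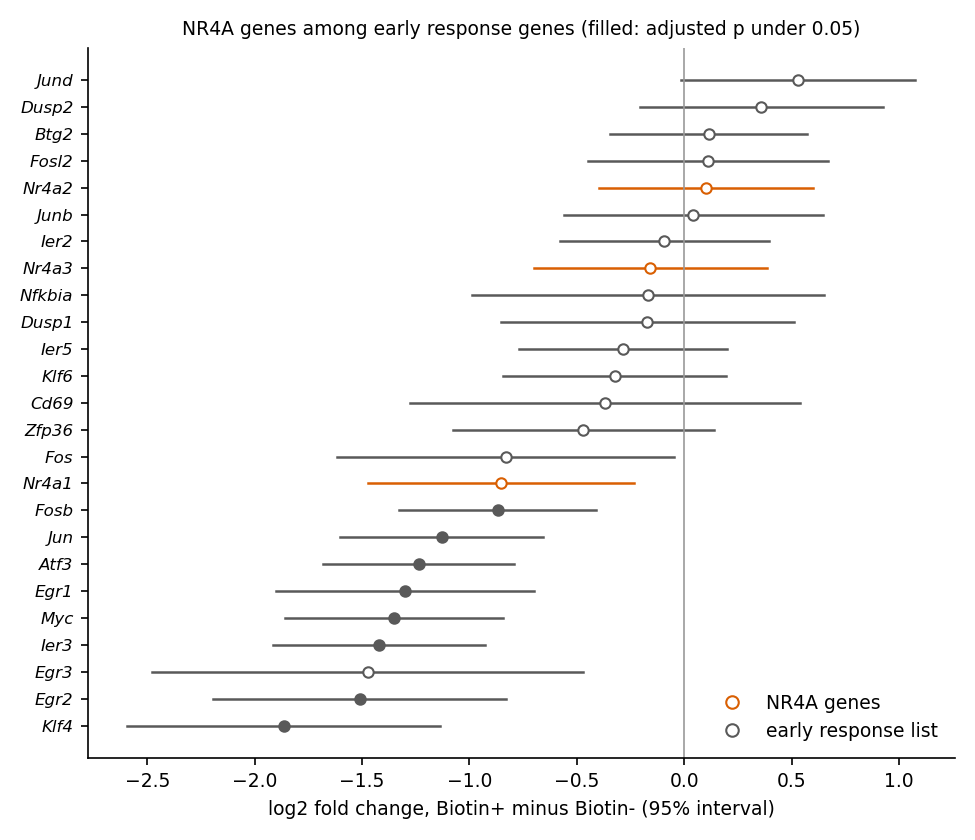
Log2 fold change, Biotin+ minus Biotin- (horizontal axis, bars are 95% intervals, filled points have an edgeR adjusted p under 0.05), of the 3 Nr4a genes (orange) and 22 other early response genes (grey). Nr4a1 sits between Fosb (filled) and Fos (open), and Nr4a2 and Nr4a3 sit among the genes whose intervals include 0.

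The genes most like each member were sought over the 6 libraries among 8423 genes of at least 10 CPM, by the root mean square difference between log2 CPM profiles centred on their means. Nr4a1, whose own range was 1.52 on this scale, was nearest to Arc, Adk and Decr1 (differences of 0.158, 0.177 and 0.181). Nr4a2 was nearest to Cbll1, Abi1 and Nek7 (0.0263, 0.0584 and 0.0625), and Nr4a3 to Spred2 and Mtmr3 (0.0433 and 0.0639) among the genes reported. Tox was nearest to Brca1, Eif2s3x and Stk17b (0.109, 0.121 and 0.124) and Tox4 to Spg7, Sdhd and Nap1l4 (0.0362, 0.0405 and 0.0412). The scarce Tox2 was nearest to Gbp4, AU020206 and Klhl28 (0.112, 0.120 and 0.139), and Tox3 to Arhgef12, Wdr59 and Ccdc137 (0.0955, 0.174 and 0.174), from profiles of few counts. None of the genes named passed in edgeR (their lowest adjusted p was 0.113, of Arc). They were picked for likeness to the members over these same 6 libraries, so this is not a separate result.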

How the data were processed

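Poly-A RNA of 3 Biotin+ and 3 Biotin- libraries was measured. The deposited table holds raw counts per gene symbol, per the labels, and the submitters' processing notes list Trim Galore 0.6.7, STAR 2.7.10a, Picard 1.14, featureCounts 2.0.1 and GRCm39 with no role. For annotation and strand setting, the sources used here are silent. Samples were mapped by title. The labels do not say that replicates were separate animals, so p-values measure the spread between these samples.

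Of 40879 genes, 13360 passed filterByExpr (minimum count 10) and were tested with edgeR 4.0.16 (R 4.3.3, TMM, robust glmQLFit and glmQLFTest, group alone), with Benjamini-Hochberg adjustment over all of them and a threshold of 0.05. SEs were taken as log2 fold change over √F. DESeq2 1.42.0 and limma 3.58.1 were alternatives. No replicates agreed within sampling noise (chi-square over its degrees of freedom was 39.2 to 107). Deviations from group means correlated at 0.424, 0.272 and 0.430 for same-numbered libraries and at or below -0.107 otherwise. Such deviations sum to 0 in each group, so the negative values follow in part from the positive ones. The numbers were read as pairing samples in the blocked fit, while the main test, with the group alone, ignores them. This reading rests on the data, as the labels do not say what a number marks. Ratios used counts plus 0.5 and exact permutation. Exon lengths and shared windows came from GENCODE M21 and promoters from RefSeq, both GRCm38. On simulated data the fit with the group alone recovered 37 of 100 2-fold changes and 92 of 100 4-fold changes. The changed genes were drawn only from genes with more counts a library than Tox2 and Tox3 averaged. These rates thus do not cover Tox2 and Tox3. Of the 142 calls of that fit, 13 were false, a share above the threshold of 0.05. Counting limits cover counting error only, since PCR copies were not marked.

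The 7 genes and the 16 gene lists were chosen with earlier results of these data known. Genes named are the 7, the 4 genes a list with the lowest p where described, and for each member the 3 genes with the most similar profile, without predicted models and receptor segments; 1 such gene is not reported here. Others are said to be named after their values were seen.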

Additional observations from a re-analysis of the deposited data

How the results depend on the processing

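Depth limited Tox3 (54 counts) and Tox2 (194 counts), and 3 libraries a group limited every interval. No alternative called any of the 7 genes higher. With DESeq2's size factors, upper quartile scaling or the stricter filter (which dropped Tox3), 0 of the 7 were lower and all log2 fold changes kept their sign. Other settings changed the counts over all genes from 205 higher and 898 lower, those over the gene lists from 11 and 24, and that of lower TOX and NR4A genes from 0. The causes were not tested.

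Library size alone gave 84 genes higher, 1 TOX or NR4A gene lower (Nr4a1, -1.09) and reversed Tox4 (-0.018) and Nr4a2 (-0.0934). Without a filter, 396 and 1495 genes were higher and lower, with 21 list genes higher and 1 of the 7 lower (Nr4a1, -0.89). DESeq2 gave 471 and 1389 genes, 20 list genes higher and 1 of the 7 lower (Nr4a1, -0.87), and limma-voom 331 genes and 17 list genes higher and 1 of the 7 lower (Nr4a1, -0.95). Identity scaling gave 28 and 3603 genes, 2 and 66 list genes, 2 of the 7 lower (Nr4a1 at -1.59 and Nr4a3 at -0.84), and reversed Tox (-0.45), Tox2 (-0.11), Tox4 (-0.52), Nr4a2 (-0.58), Ppp3cc (-0.0057), Camk4 (-0.019), Orai1 (-0.16) and Ppp1ca (-0.10).

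The fit with the replicate block, which pairs same-numbered libraries, gave 748 and 1599 genes, 36 and 40 list genes, and 1 of the 7 lower (Nr4a1, -0.89), and it changed the call of no other TOX or NR4A gene. Alternatives chosen after seeing the data combined the block with identity scaling or left out a pair. Block and identity scaling gave 101 genes higher and 6866 lower of 13360 tested, and 101 list genes lower. It called 4 of the 7 lower (Nr4a1, Nr4a2, Nr4a3 and Tox4), a share near that of all genes. The log2 fold changes were Tox -0.45, Tox2 -0.16, Tox3 -1.93, Tox4 -0.52, Nr4a1 -1.61, Nr4a2 -0.58 and Nr4a3 -0.90. Those of other named genes were Ppp3cc -0.0057, Camk4 -0.00856, Orai1 -0.15 and Ppp1ca -0.12. Without 1 pair each, the blocked fits gave 395, 1163 and 226 genes higher (without pairs 1, 2 and 3) and 1149 to 2020 lower, 15 to 43 list genes higher and 31 to 48 lower, and 0 to 1 of the 7 lower (Nr4a1, -1.08 to -0.78).

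Without 1 library at a time, 23 to 200 genes were higher and 239 to 1044 lower, the lowest of both without Biotin- replicate 3. Both counts also fell by over 1.5 times without Biotin+ replicate 2 (58 and 364) or Biotin- replicate 1 (52 and 445), and the higher count without Biotin- replicate 2 (111). The list genes ran from 2 to 13 higher and 16 to 27 lower, and 0 to 1 of the 7 was lower. Nr4a1 ran from -1.22 to -0.69, Tox from -0.015 to 0.53 and Nr4a2 from -0.068 to 0.25, both of the latter turning sign without Biotin- replicate 3. Tox2 ran from 0.17 to 0.73, Tox3 from -2.09 to -0.28 and Nr4a3 from -0.41 to -0.025, and none of these passed. The difference in log2 ratio of Tox to Tox2 ran from -0.70 to 0.29, turning sign without Biotin+ replicate 3, and that of Tox to Tox4 from -0.14 to 0.33, turning sign without Biotin+ replicate 1 or 2 or Biotin- replicate 3.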

Other observations

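Nuclear receptors outside the NR4A family numbered 28, of which 21 had enough counts for the test, 2 were lower and 0 higher. The test called 6.72% of all genes lower and 1.53% higher. The blocked fit called 5 of the receptors lower and 1 higher (Nr1h2, named after its value was seen), against 12% and 5.6% of all genes. The median log2 fold change of the 21 with the group alone was -0.44. Nr1d1, a circadian repressor, averaged 4.97 ± 1.90 CPM in the Biotin+ libraries against 20.6 ± 6.72 CPM (SD, n = 3) in the others, or -2.05 ± 0.38 (SE) on the log2 scale (edgeR adjusted p = 0.0112). Rarg, a retinoic acid receptor, averaged 30.5 ± 12.2 against 84.6 ± 38.2 CPM, or -1.47 ± 0.36 (SE) on the log2 scale (edgeR adjusted p = 0.0311). Both lost the call without Biotin- replicate 3 (edgeR adjusted p = 0.0574 and 0.140), and Rarg also without Biotin+ replicate 1 (0.0884) or 2 (0.110). Thra and Nr2f2 had log2 fold changes of -1.46 ± 0.43 and -1.98 ± 0.63 (SE) and did not pass in edgeR (adjusted p = 0.0629 and 0.0869), and both were lower in the blocked fit (adjusted p = 0.000361 and 0.00124).

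Of 21 HMG-box genes outside the TOX family, 2 were lower and 0 higher, against 6.72% and 1.53% of all genes tested. The median log2 fold change of the 21 was -0.01. The blocked fit called 4 lower, against 12% of all genes, adding Tcf7l2 (-2.28 ± 0.63 SE with the group alone) and Sox5 (-1.58 ± 0.60 SE). The edgeR adjusted p of these 2 was 0.0529 and 0.145 with the group alone and 0.00634 and 0.0357 with the block. Sox5 lost the blocked call with any 1 pair left out (edgeR adjusted p = 0.064 to 0.097) and Tcf7l2 lost it without pair 3 (0.102). Both were scarce, at 0.964 (Tcf7l2) and 1.11 CPM (Sox5) in Biotin+ and 4.74 and 3.34 CPM in Biotin-. The genes lower with the group alone were Tcf7 and Sox4. Sox4, a factor of progenitor and mesenchymal cells, averaged 10.04 ± 3.79 CPM in the Biotin+ libraries against 48.4 ± 10.5 CPM (SD, n = 3) in the others, or -2.27 ± 0.32 (SE) on the log2 scale (edgeR adjusted p = 0.00618). The share of fibroblast and endothelial markers was lower in the libraries where Nr1d1, Rarg and Sox4 were lower, and its part was not tested.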
